A study of Saccharomyces cerevisiae with 17 samples.

Results

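Loss of any of 3 proteins of nonsense-mediated mRNA decay (NMD) was set against wild type in 1 contrast, the average of the 3 deletions. NMD removes mRNAs on which ribosomes terminate prematurely. UPF1, which the count table lists as NAM7, encodes its central RNA helicase, while Nmd4 and Ebs1 are accessory factors that associate with it. The contrast used all 17 libraries of the series: 5 of wild type, 3 of upf1Δ, 6 of nmd4Δ and 3 of ebs1Δ, with each deletion genotype weighted equally and the batch given in the labels as a term. Every strain was BY4741, a haploid laboratory strain in which URA3 and MET17 are deleted, and every strain carried the LEU2 plasmid pRS415. The genotypes were pRS415 alone for wild type, and upf1delta::KlURA3, nmd4delta::KlURA3 or ebs1delta::KlURA3 with pRS415 for the deletions. Cells grew in synthetic medium without leucine to an absorbance of 0.6 to 0.7, and poly(A) RNA was sequenced. The labels do not say how many transformants stand behind each deletion.

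The deletion strains thus share a second difference from wild type, the URA3 gene of Kluyveromyces lactis. A strain with KlURA3 inserted but all 3 genes intact was not analysed here, so in each comparison with wild type the marker and the deletion cannot be told apart. Genes whose 3 changes were of near equal size are therefore given apart from genes whose changes were graded. URA3 encodes orotidine 5′-phosphate decarboxylase, the last enzyme of UMP synthesis. Upstream of it, Ura2 makes carbamoyl aspartate, Ura4 (dihydroorotase) closes the ring, Ura1 (dihydroorotate dehydrogenase) makes orotate, and Ura5 and Ura10 add the ribose phosphate. The zinc-cluster activator Ppr1 responds to intermediates of this pathway and is known to act on URA1, URA3 and URA4.

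The 11 libraries of batch 1 had 19.75 to 29.67 M counted reads. The 6 libraries of batch 2, of wild type and nmd4Δ only, had 40.37 to 59.48 M. Deviations from the genotype and batch means showed that batch 2 libraries resembled single batch 1 libraries: wild type replicates 3 and 4 correlated with replicates 1 and 2 at 0.81 and 0.645, and nmd4Δ replicates 4, 5 and 6 with 1, 2 and 3 at 0.775, 0.833 and 0.689, across 4060 genes that are not independent. Wild type replicate 5 correlated with replicate 2 at 0.291 and was left unmatched. Whether it came from a culture of its own is not known. Matched libraries count once in each mean of CPM (counts scaled to TMM library size), which leaves n = 3 sets per genotype. The tests took matched libraries as separate. The spread behind each p-value is that among these libraries, which may be technical. URA3 had 0 reads in all libraries, and MET17 at most 1. Reads of the deleted genes went from 4535 to 10325 per wild type library to 5 to 59 for NAM7 in upf1Δ, from 805 to 1765 to 17 to 61 for NMD4 in nmd4Δ, and from 3325 to 6950 to no more than 1 for EBS1 in ebs1Δ.

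On average over the 3 deletions 1833 of 6162 tested genes rose (29.7%) and 1673 fell (27.2%), 56.9% in all, by edgeR's quasi-likelihood test at a Benjamini-Hochberg adjusted p under 0.05. Few of these changes were shared evenly. The deletions differed among themselves at 4696 genes (76.2%) by an F test of upf1Δ, nmd4Δ and ebs1Δ in the same fit. A gene was described as near equal when each deletion passed on its own against wild type in the direction of the average, the smallest change was at least 0.5 on the log2 scale, and the smallest was at least 0.7 of the largest. Only 4 rises and 8 falls met that description, and 2 rises and 7 falls met it apart from the minimum size. Graded genes, whose changes all had 1 sign while the deletions differed and the smallest change was under 0.5 of the largest, numbered 1344 rises and 1128 falls. At 371 rises and 308 falls the deletions differed and at least 1 estimate pointed against the average. Few of the opposing estimates passed on their own. Among those rises upf1Δ, nmd4Δ and ebs1Δ were lower at 0, 24 and 0, beside 35.1%, 14.4% and 7.38% of all tested genes. Among those falls they were higher at 3, 1 and 1, beside 36.4%, 13.6% and 14%. The other 112 rises and 222 falls met none of these descriptions and are said to lie between. The F test passed at only 13 and 11 of them, which the definitions of the other classes favour. At most of them neither even nor uneven changes were shown. The classes were made from the same contrasts, so these counts are a description.

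Among changes of at least 2-fold on average the makeup differed by direction. Of 293 such rises 277 were graded and 3 near equal. Of 20 such falls 2 were graded, 6 were near equal, 10 lay between and 2 were opposite in sign. The 2 opposite falls were EBS1 and NAM7, which are deleted genes. In EBS1 the average change was -4.08, made of 0.73 in upf1Δ, -0.05 in nmd4Δ and -12.93 in ebs1Δ, the last a fitted value that depends on the prior count and is no bound. In NAM7 it was -2.41, made of -7.56, 0.11 and 0.21 in that order. The upf1Δ strain set much of the average: over nmd4Δ and ebs1Δ alone 870 genes rose and 525 fell.

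**Figure D1:**
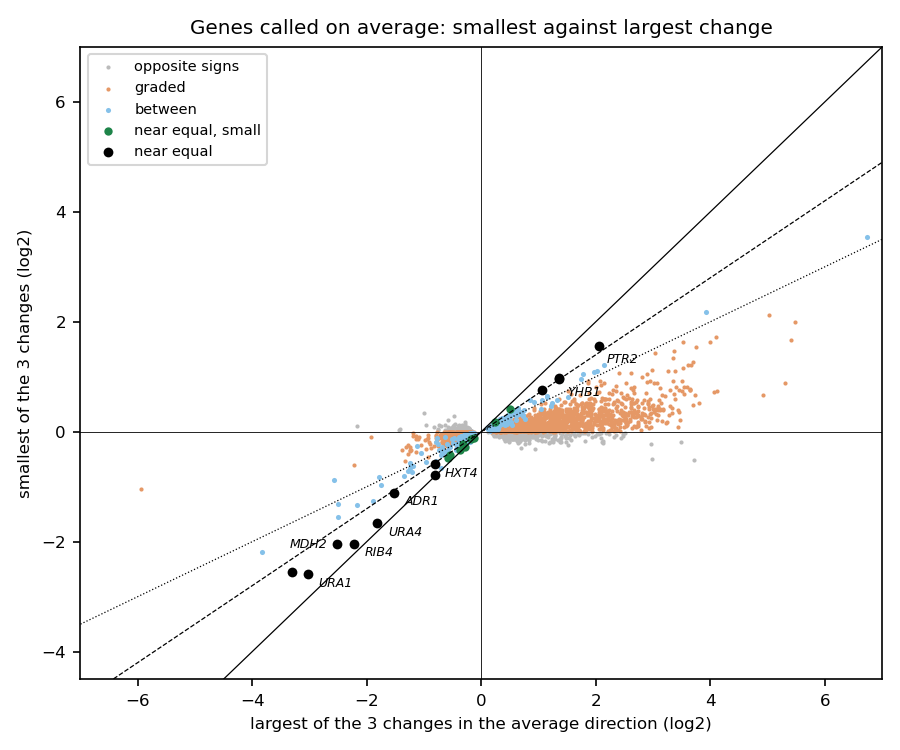
Each point is a gene called on average, with the largest of its 3 log2 fold changes in the direction of the average on the horizontal axis and the smallest on the vertical axis; the 3 deleted genes are left out. The solid line marks equal changes, the dashed line a ratio of 0.7 and the dotted line a ratio of 0.5. The 12 near equal genes (black) lie between the solid and dashed lines, and the graded genes (orange) between the dotted line and the horizontal axis.

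The near equal falls included genes of enzymes of pyrimidine, malate and riboflavin metabolism. URA1 fell 6.81-fold, MDH2 4.91-fold, RIB4 4.42-fold and URA4 3.30-fold on average. In URA1, RIB4 and URA4 the promoter held a DNA word that Ppr1 is known to bind, CGG and CCG separated by 6 bases (CGGNNNNNNCCG, which reads the same on both strands). The matches are shown here because only these 3 of the 12 near equal genes had one. They come from the RefSeq genome, assembly R64 (sacCer3), are written 5′ to 3′ on the strand of the gene with 12 bases on each side, and have the match in capitals. No other motif searched overlapped these matches.
URA1 first match, chrXI:24991-25026, plus strand: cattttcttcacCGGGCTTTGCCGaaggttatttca
URA1 second match, chrXI:25022-25057, plus strand: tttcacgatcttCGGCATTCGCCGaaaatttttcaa
RIB4 first match, chrXV:55279-55314, minus strand: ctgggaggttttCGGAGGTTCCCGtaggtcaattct
RIB4 second match, chrXV:55217-55252, minus strand: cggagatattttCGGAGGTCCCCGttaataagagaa
URA4 match, chrXII:963643-963678, plus strand: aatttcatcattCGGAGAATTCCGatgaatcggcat

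The first base of each match lay 212 and 181 bases before the annotated start of URA1, 198 and 136 bases before that of RIB4, and 130 bases before that of URA4. Over promoters of the same length, 250 bases before to 50 after the start, 75 of 6001 held the word (1.25%). In 73 of them it occurred at 1 place and in 2 of them at 2 places, and those 2 were URA1 and RIB4. Of the 73 promoters whose gene was tested, 17 genes rose and 36 fell on average, beside 29.7% and 27.2% of all tested genes, with a median change of -0.11 on the log2 scale against -0.01 over all tested genes. The 3 lowest of these 73 average changes were those of URA1, RIB4 and URA4, which their selection as near equal falls favours. The next was -0.48, of DPI8. A match is a description of the letters and not of binding. GATAAG, bound by nitrogen GATA factors, was found in 1 of 12 promoters (HXT4) and in 14.7% of all. TGACTCA (Gcn4, 2.73% of all), CACGTG (Pho4 and Cbf1, 2.92%) and the Zap1 word (0.083%) were in none, with both strands searched.

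URA1 (YKL216W, chromosome XI, 25215 to 26159, plus strand) had 1253, 1261, 1252, 1230 and 1322 CPM in the 5 wild type libraries. It had 191, 252 and 181 CPM in upf1Δ, a lowest, median and highest of 149, 154 and 161 CPM in nmd4Δ, and 172, 212 and 202 CPM in ebs1Δ. All 12 deletion libraries lay far below all wild type libraries, and nmd4Δ was the lowest group. Mean levels were 1273 ± 42.0 CPM in wild type, 208 ± 38.6 in upf1Δ, 155 ± 4.89 in nmd4Δ and 195 ± 20.9 in ebs1Δ (SD, n = 3 sets each). The level left was 16.6% of wild type in upf1Δ, 12.3% in nmd4Δ and 15.6% in ebs1Δ from the fitted changes. The average log2 change was -2.77 ± 0.065 (SE; edgeR adjusted p = 1.66e-16), made of -2.59, -3.03 and -2.68 in upf1Δ, nmd4Δ and ebs1Δ.

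URA4 (YLR420W, chromosome XII, 963785 to 964879, plus strand) had 349, 349, 352, 354 and 357 CPM in wild type. It had 95.5, 111 and 92.7 CPM in upf1Δ, 107, 109 and 110.4 CPM as lowest, median and highest in nmd4Δ, and 107, 113 and 111 CPM in ebs1Δ. The libraries of a group were close to one another, and no deletion library came near wild type. The average change was -1.72 ± 0.038 (edgeR adjusted p = 7.30e-17), made of -1.81, -1.69 and -1.67 for upf1Δ, nmd4Δ and ebs1Δ.

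RIB4 (YOL143C, chromosome XV, 54595 to 55104, minus strand) encodes lumazine synthase, the enzyme before the last step of riboflavin synthesis. Its levels were 599, 528, 588, 521 and 539 CPM in wild type. They were 133, 140 and 137 CPM in upf1Δ, between 119 and 125 CPM with a median of 124 in nmd4Δ, and 131, 115 and 117 CPM in ebs1Δ. The average change was -2.14 ± 0.042 (edgeR adjusted p = 1.51e-17), made of -2.04, -2.18 and -2.21. All 12 deletion libraries lay between 115 and 140 CPM, far from the lowest wild type library.

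MDH2 (YOL126C, chromosome XV, 81787 to 82920, minus strand) encodes the cytosolic malate dehydrogenase used in gluconeogenesis. It had 335, 312, 337, 313 and 272 CPM in wild type, 74.4, 90.8 and 67.7 CPM in upf1Δ, 52.3 to 71.3 CPM with a median of 61.7 in nmd4Δ, and 60.3, 55.1 and 51.6 CPM in ebs1Δ. No deletion library came near wild type, and upf1Δ, which moved farthest in most graded genes, moved least here. On average the change was -2.29 ± 0.084 (edgeR adjusted p = 1.20e-12), made of -2.03, -2.34 and -2.51.

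ADR1 (YDR216W, chromosome IV, 895035 to 899006, plus strand) encodes an activator of glucose-repressed genes such as ADH2. Wild type libraries had 86.1, 93.3, 89.0, 92.9 and 91.4 CPM, upf1Δ 33.4, 28.9 and 31.6, nmd4Δ 37.5 to 47.4 with a median of 40.5, and ebs1Δ 48.4, 35.5 and 36.2. All deletion libraries were below wild type, with upf1Δ below all nmd4Δ and ebs1Δ libraries. Its average change was -1.26 ± 0.075 (edgeR adjusted p = 2.47e-10), made of -1.52, -1.11 and -1.16, and the smallest was 0.73 of the largest. Without upf1Δ replicate 1 the ratio fell under 0.7 and the gene was no longer near equal.

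HXT4 (YHR092C, chromosome VIII, 287081 to 288811, minus strand), a glucose transporter of the plasma membrane, made the smallest near equal fall. It had 80.0, 76.3, 77.1, 70.5 and 70.0 CPM in wild type, 41.0, 39.9 and 52.3 CPM in upf1Δ, 44.7 to 58.0 CPM with a median of 49.5 in nmd4Δ, and 43.2, 53.5 and 46.3 CPM in ebs1Δ. Its average change was -0.71 ± 0.072 (edgeR adjusted p = 2.77e-07), made of -0.82, -0.59 and -0.71. The groups did not overlap with wild type, but the deletion libraries overlapped with one another. The smallest change was 0.721 of the largest, and the gene left the near equal class in 8 of 27 fits, both DESeq2 settings among them. HXT4 is 1 of a family of similar transporters, and 2.50% of its 50-base words occur elsewhere in the genome.

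The near equal rises of well expressed genes were PTR2 and YHB1. PTR2 (YKR093W, chromosome XI, 615730 to 617535, plus strand) encodes the membrane transporter of dipeptides and tripeptides. It had 15.96, 16.3, 15.2, 15.3 and 14.4 CPM in wild type, 50.4, 40.2 and 56.3 CPM in upf1Δ, 54.7 to 73.0 CPM with a median of 64.8 in nmd4Δ, and 59.5, 52.1 and 57.4 CPM in ebs1Δ. Every deletion library was at least 2-fold above every wild type library, and nmd4Δ had the highest mean. Its average change was 1.79 ± 0.074 (edgeR adjusted p = 9.75e-13), made of 1.56, 2.05 and 1.76, and without upf1Δ replicate 3 the ratio fell under 0.7.

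YHB1 (YGR234W, chromosome VII, 959904 to 961103, plus strand) encodes flavohemoglobin, which oxidises nitric oxide to nitrate. It had 211, 219, 212, 223 and 244 CPM in wild type, 590.5, 590.0 and 514 CPM in upf1Δ, 387 to 492.9 CPM with a median of 415 in nmd4Δ, and 526.3, 508 and 453 CPM in ebs1Δ. All deletion libraries lay above wild type, with the highest mean in upf1Δ. Its average change was 1.16 ± 0.072 (edgeR adjusted p = 1.47e-10), made of 1.36, 0.96 and 1.17. Its ratio of 0.704 was just inside the limit, and it left the class without wild type replicate 3, upf1Δ replicate 3 or nmd4Δ replicate 1 or 4.

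**Figure D2:**
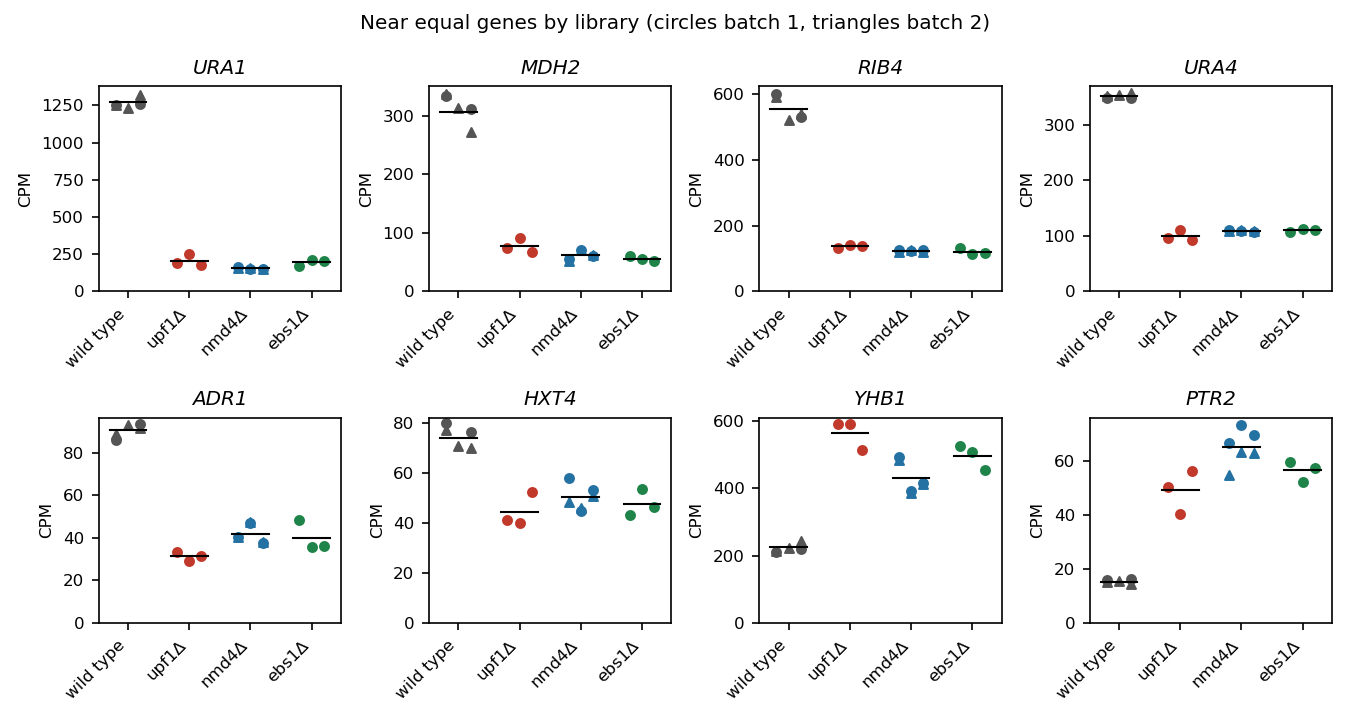
CPM of each library (circles batch 1, triangles batch 2) for the 8 named near equal genes whose mean was 10 CPM or more and that had no overlap between deletion and wild type libraries within a batch; bars are means over 3 sets of matched libraries. In each panel the 3 deletions lie on the same side of wild type, as in URA1 with 149 to 252 CPM in the deletions and 1230 to 1322 CPM in wild type.

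Another 4 near equal genes were low or rested on few libraries, and are given as members of the class. YNL018C (chromosome XIV, 599936 to 601774, minus strand), a gene without a standard name, had 3.06 to 3.94 CPM in wild type and 0.286 to 0.743 CPM in the deletions. Its average change was -2.96 ± 0.15, the largest of the class. Its close copy YNL034W, with which it shares 42.0% of 50-base words, changed by -3.06 ± 0.19, made of -2.20, -3.82 and -3.15. Reads of the pair may be split or lost in counting, so their levels are uncertain, and both were lower in all deletion libraries. EGO4 (chromosome XIV, 692561 to 692857, plus strand) changed by -0.79 ± 0.14, with 9.91 to 17.4 CPM in wild type and 6.35 to 10.8 CPM in the deletions, whose ranges overlap when batches are pooled. MAN2 (chromosome XIV, 774792 to 776300, minus strand), a mannitol dehydrogenase gene with 58.5% repeated 50-base words, rose by 1.16 ± 0.14 on the log2 scale, with 1.55 to 2.17 CPM in wild type and 2.84 to 5.38 CPM in the deletions. YBL044W (chromosome II, 135998 to 136366, plus strand) changed by 0.93 ± 0.22 at 0.38 to 1.42 CPM, or 10 to 58 reads per library, and its groups overlapped.

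Within the batch of only wild type and nmd4Δ libraries the nmd4Δ changes were close to those within batch 1 for most near equal genes. They were -3.03 in batch 1 and -3.02 in batch 2 for URA1, -1.68 and -1.70 for URA4, -2.19 and -2.17 for RIB4, -2.38 and -2.30 for MDH2, -1.11 and -1.11 for ADR1, 2.11 and 2.01 for PTR2, and 1.01 and 0.92 for YHB1. YBL044W changed by 1.34 in batch 1 and 0.49 in batch 2, where its edgeR adjusted p was 0.229. EGO4 changed by -0.90 and -0.69, with an adjusted p of 0.0507 in batch 2. Because most batch 2 libraries match a batch 1 library, the 2 batches may not be independent cultures.

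Near equal did not mean indistinguishable. The deletions differed by the F test at 7 of the 12 genes, against 76.2% of all tested genes. URA1 was lower in nmd4Δ than in upf1Δ by 0.43 (95% interval 0.25 to 0.62, edgeR adjusted p of the F test 0.000634) and lower than in ebs1Δ by 0.34 (0.16 to 0.53). For PTR2 upf1Δ minus nmd4Δ was -0.49 (-0.67 to -0.31), for YHB1 it was 0.40 (0.22 to 0.59), and for ADR1 it was -0.41 (-0.63 to -0.19). MDH2 was higher in upf1Δ than in ebs1Δ by 0.48 (0.21 to 0.74). RIB4 and URA4 differed by less, with upf1Δ minus nmd4Δ at 0.14 (0.02 to 0.26) for RIB4 and -0.12 (-0.23 to -0.01) for URA4. HXT4, EGO4, MAN2, YBL044W and YNL018C did not pass the F test. Of these, HXT4 passed in the direct comparison of upf1Δ with nmd4Δ (-0.23, interval -0.43 to -0.02, edgeR adjusted p = 0.0479). For EGO4 that interval ran from -0.45 to 0.39, which does not show that the deletions act alike.

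**Figure D3:**
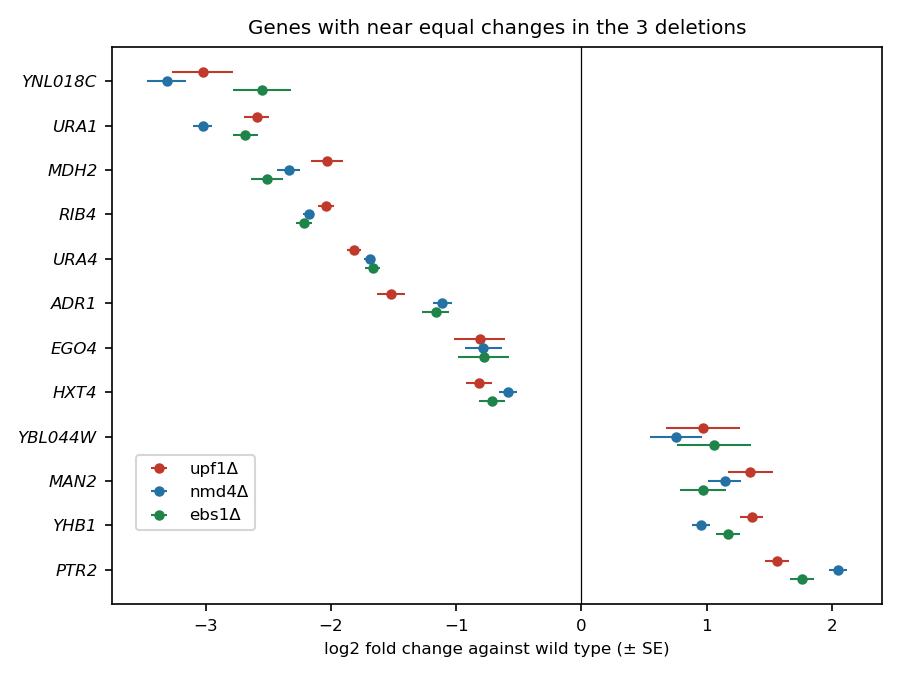
Log2 fold changes against wild type with their SE for upf1Δ (red), nmd4Δ (blue) and ebs1Δ (green) in the 12 near equal genes, ordered by average change. The 3 points of each gene lie on 1 side of 0, from YNL018C at -2.55 to -3.31 to PTR2 at 1.56 to 2.05, and all 3 comparisons share the wild type libraries.

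The limit of 0.7 divided similar genes. Just inside it lay YHB1 (0.704), YBL044W (0.713) and MAN2 (0.719). Just outside lay KSH1 (ratio 0.672, average change 0.69), STR3 (0.665, -0.67) and YNL194C (0.618, -1.88). The 9 genes with even but small changes were ADH1, which encodes the main fermentative alcohol dehydrogenase (-0.35), CTS1, an endochitinase gene of cell separation (-0.28), SUN4, a cell wall septation gene (-0.27), ECM3 (-0.53), COQ21 (-0.50), CAJ1 (-0.15) and AIM41 (-0.12), and the 2 rises YOR1, a multidrug exporter gene (0.22), and MRS4, a mitochondrial iron carrier gene (0.47). The F test passed for none of these 9, which their selection for even and small changes favours. ADH1 went from 13156 to 17235 CPM in wild type to 10549 to 13214 CPM in the deletions, and the ranges overlapped.

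Apart from URA1 and URA4, FUI1 made the only other average fall of 2-fold or more among the pyrimidine genes. Of 17 tested genes of pyrimidine synthesis and salvage 4 rose and 8 fell, beside 29.7% and 27.2% of all tested genes, with a median of -0.13 against -0.01 over all tested genes. URA2, which encodes the first enzyme of the pathway, changed by -0.35 ± 0.039 with -0.43, -0.30 and -0.34 in upf1Δ, nmd4Δ and ebs1Δ. It went from 531 to 573 CPM in wild type to 394 to 482 CPM in the deletions, with a ratio of 0.695 that kept it out of the even classes. FUI1, the uridine permease gene, fell by 1.15 ± 0.14 on the log2 scale, with -1.31, -1.35 and -0.81. Its levels in ebs1Δ were 80.2, 158 and 98.3 CPM against 169 to 212 CPM in wild type, and replicate 2 of ebs1Δ lay closest to wild type.

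Of the other members, URA10, URA6 and CDD1 moved mainly in upf1Δ, and the rest changed little on average. URA10, the minor orotate phosphoribosyltransferase gene, had 10.3 to 11.3 CPM in wild type, 53.4, 54.2 and 60.15 CPM in upf1Δ, 10.5 to 12.5 CPM in nmd4Δ and 10.8 to 12.2 CPM in ebs1Δ. Its changes were 2.34, 0.08 and 0.07. URA6 (0.90 in upf1Δ, 0.05 in nmd4Δ, 0.11 in ebs1Δ) and CDD1 (0.83, 0.06 and 0.06), genes of UMP kinase and cytidine deaminase, were graded in the same way. PPR1, the activator's own gene, had changes of 0.42, -0.18 and 0.30 in that order, and its average of 0.18 no longer passed without wild type replicate 1. URA5 (-0.13), URA7 (-0.24) and FUR4 (-0.33) fell in graded fashion, and URA7 no longer passed without wild type replicate 2. In upf1Δ, nmd4Δ and ebs1Δ URA7 had -0.40, -0.29 and -0.02, and FUR4 -0.57, -0.37 and -0.05. FCY1 fell by 0.14, no longer passed without wild type replicate 1, and was the only other gene of the list with the Ppr1 word in its promoter. URA8, URH1, URK1, FCY2 and FUR1 did not pass, with averages of 0.01, 0.06, 0.00, 0.01 and -0.15.

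**Figure D4:**
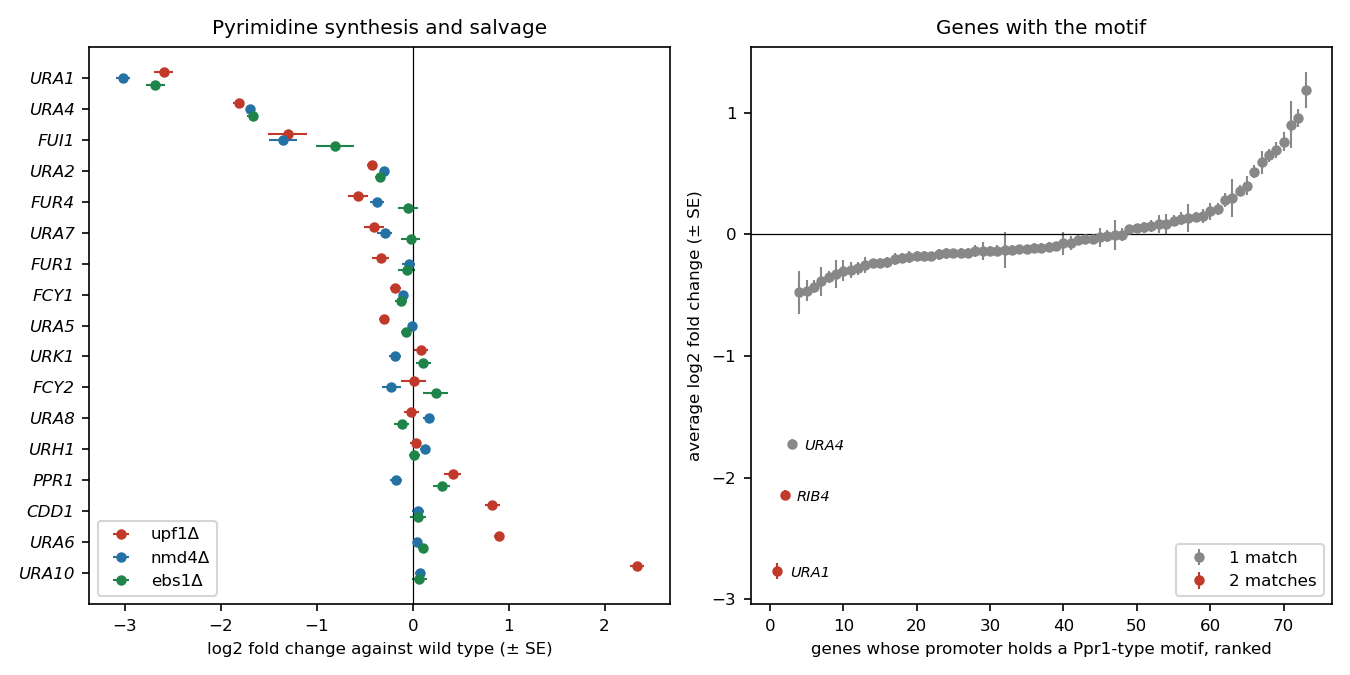
Left, log2 fold changes against wild type with their SE in upf1Δ, nmd4Δ and ebs1Δ for the 17 genes of pyrimidine synthesis and salvage; right, average change with its SE of the 73 tested genes whose promoter holds the Ppr1 word, ranked from the lowest, with the 2 genes that hold it at 2 places in red. URA1 and URA4 have the lowest average changes of the pyrimidine genes, followed by FUI1 (-1.15). URA1 (-2.77), RIB4 (-2.14) and URA4 (-1.72) lie apart from the other genes with the word, which their selection as near equal falls favours.

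RIB4 was the only fall among the genes of riboflavin and flavin cofactors. Of 10 tested members 3 rose and 1 fell, beside 29.7% and 27.2% of all tested genes. RIB1, RIB2, RIB3, RIB5 and RIB7, which encode the other enzymes of riboflavin synthesis, had average changes of 0.01, 0.03, -0.06, -0.07 and 0.01 and did not pass. FAD1 (-0.05) did not pass either. FMN1, the riboflavin kinase gene, rose on average by 0.54 with 1.40 in upf1Δ, 0.07 in nmd4Δ and 0.15 in ebs1Δ. MCH5, the riboflavin transporter gene (0.76), and FLX1, the mitochondrial FAD carrier gene (0.31), were also graded.

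Among 14 genes of malate dehydrogenases, the glyoxylate cycle and gluconeogenesis 3 rose and 7 fell, beside 29.7% and 27.2% of all tested genes. MDH1, the mitochondrial form, changed by -0.13 and MDH3, the peroxisomal form, by -0.17, against -2.29 for MDH2. MDH1 no longer passed without any of wild type replicates 1, 2 and 3, upf1Δ replicate 3, or nmd4Δ replicates 4 and 6. MLS1, a malate synthase gene, had 1.75 to 7.94 CPM in wild type and 0.899 to 3.24 CPM in the deletions. Its changes were -1.41, -1.89 and -1.25, and its ratio was 0.663. FBP1, the fructose-1,6-bisphosphatase gene, had -0.96, -1.76 and -1.06 and an average of -1.26 ± 0.24. Wild type libraries themselves varied for both genes, and deletion and wild type libraries overlapped when batches were pooled. CIT3 rose by 0.34 and SIP4 by 0.37, and CAT8 fell by 0.34; SIP4 and CAT8 no longer passed without wild type replicate 2. DAL7, the malate synthase gene of allantoin breakdown, is given with the graded genes, and ADR1, also on this list, with the near equal genes. ICL1 had changes of 0.99, -0.49 and -0.24, and PCK1 1.31, -0.57 and 0.02. Those 2 did not pass on average, nor did ACS1 (0.06) or CIT2 (0.02).

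Graded changes had upf1Δ at the top in nearly every gene. Among the 1344 graded rises the order upf1Δ, ebs1Δ, nmd4Δ held for 1008 (75%) and the order upf1Δ, nmd4Δ, ebs1Δ for 309. The median changes were 1.21 in upf1Δ, 0.18 in nmd4Δ and 0.32 in ebs1Δ. On its own upf1Δ was higher than wild type at 1333 of these genes, nmd4Δ at 570 and ebs1Δ at 697, beside 36.4%, 13.6% and 14% of all tested genes. In either direction the deletions passed at 71.5%, 28% and 21.4% of tested genes. Among the 1128 graded falls the same 2 orders held for 607 (53.8%) and 465, with medians of -0.35, -0.09 and -0.11. The deletions were lower on their own at 1111, 406 and 253 of them, beside 35.1%, 14.4% and 7.38% of tested genes. The graded falls were smaller and of more abundant mRNAs, with a median level of 110.5 CPM against 24.7 CPM for the graded rises and 50.3 CPM for all tested genes. A direct comparison of ebs1Δ with nmd4Δ passed at 405 of the graded rises, and in 374 of them ebs1Δ was the higher. It passed at 181 of the graded falls, and in 108 of them ebs1Δ was the lower. Over all tested genes that comparison passed at 26.01%.

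DAL7 shows the usual form. It had 25.96, 26.2, 24.7, 27.0 and 27.2 CPM in wild type, 287, 288 and 305 CPM in upf1Δ, 28.9 to 31.7 CPM in nmd4Δ, and 39.2, 36.3 and 44.9 CPM in ebs1Δ. The 4 genotypes did not overlap, in the order wild type, nmd4Δ, ebs1Δ, upf1Δ. On average the change was 1.42 ± 0.049 (edgeR adjusted p = 7.70e-14), made of 3.47, 0.20 and 0.60.

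The other large graded rises mostly had that order. REC8, a cohesin subunit gene of meiosis, had changes of 3.09, 0.40 and 0.99 in upf1Δ, nmd4Δ and ebs1Δ, with 2.67 to 3.49 CPM in wild type and 27.2 to 30.4 CPM in upf1Δ. GIT1, the glycerophosphoinositol permease gene, had 3.09, 0.43 and 0.96. AAD4, an aryl-alcohol dehydrogenase gene, had 2.98, 0.48 and 0.89, and IRC10 had 3.34, 0.34 and 0.61. JLP1, a sulfonate dioxygenase gene, had 3.07, 0.21 and 1.00, and GTO3, a glutathione transferase gene, had 3.34, 0.42 and 0.92. In AAD4 and IRC10 all deletion libraries lay above wild type, while JLP1 and GTO3 overlapped with wild type in nmd4Δ. GTO3 did not pass in nmd4Δ or ebs1Δ (edgeR adjusted p = 0.305 and 0.126), nor did JLP1 in nmd4Δ (0.0743).

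COS12, RTC4 and ADH4 complete the 10 largest graded rises. COS12, of a subtelomeric family, made the largest graded rise, 2.55 ± 0.28 on average with 3.74, 1.53 and 2.36. Its wild type replicate 5 had 9.58 CPM where the other 4 had 4.14 to 5.52 CPM, and nmd4Δ ran from 9.70 to 23.7 CPM. RTC4 had 2.28, 1.23 and 0.69, with 143, 49.2 and 155 CPM in upf1Δ and 21.4 to 25.5 CPM in wild type. ADH4, an alcohol dehydrogenase gene, was highest in nmd4Δ, with changes of 1.67, 2.46 and 0.50. It had 75.0 to 82.6 CPM in wild type, 246, 205 and 311 CPM in upf1Δ, 350 to 586 CPM in nmd4Δ, and 119, 111 and 108 CPM in ebs1Δ. Neither RTC4 nor ADH4 passed in ebs1Δ (edgeR adjusted p = 0.174 and 0.0933).

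The largest graded fall was PHO84, the high-affinity phosphate transporter gene, and it rested on uneven libraries. It had 209, 348, 211, 341 and 318 CPM in wild type and 1.77, 9.27 and 2.97 CPM in upf1Δ. In nmd4Δ replicates 2 and 5 had 319 and 296 CPM while the other 4 had 46.7 to 61.1 CPM, and ebs1Δ had 56.5, 171 and 183 CPM. Its changes were -5.95 ± 1.12, -1.05 ± 0.61 and -1.08 ± 0.84, of which nmd4Δ (edgeR adjusted p = 0.221) and ebs1Δ (0.403) did not pass. PHO84 overlaps an annotated RNA on the other strand, and whether counting used strand is not stated, so reads of the pair cannot be told apart.

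**Figure D5:**
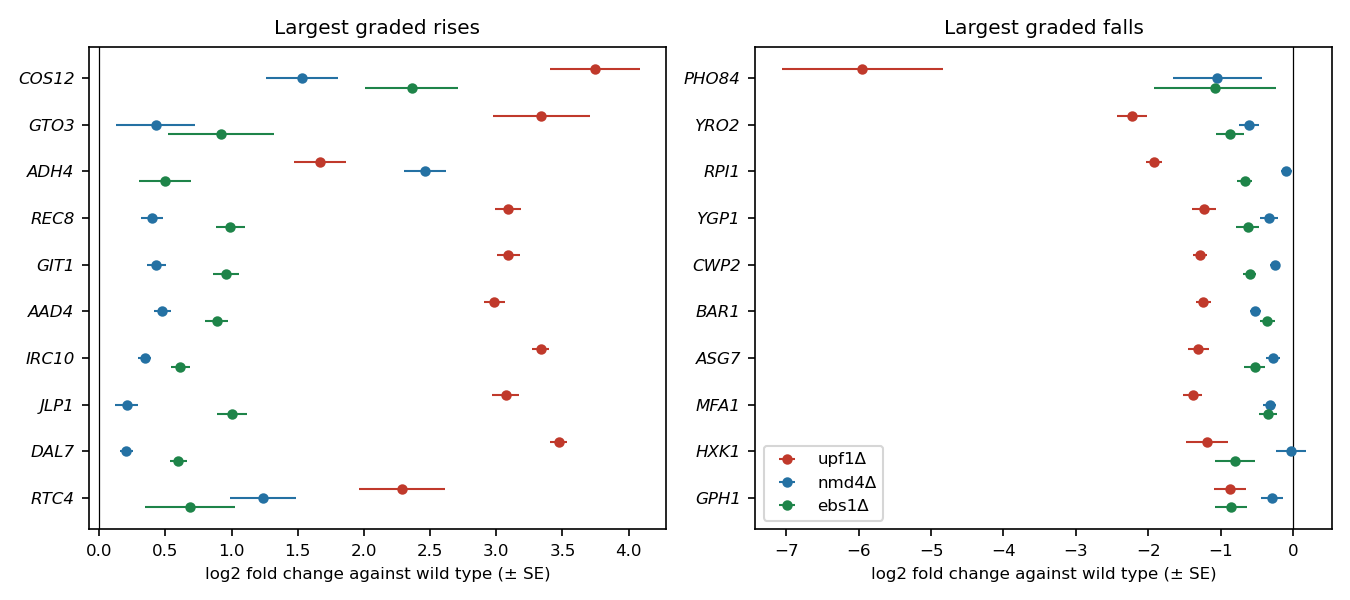
Log2 fold changes against wild type with their SE in upf1Δ (red), nmd4Δ (blue) and ebs1Δ (green) for the 10 largest graded rises (left) and falls (right) among named genes whose mean was 10 CPM or more, ordered by average change. The upf1Δ point lies farthest from 0 in 9 of the 10 rises, with ADH4 the exception, and in all 10 falls, from PHO84 at -5.95 to GPH1 at -0.87.

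The other named graded falls were smaller than that of PHO84. YRO2 fell by 1.24 on average, with 119 to 151 CPM in wild type and 38.7, 25.8 and 26.3 CPM in upf1Δ, and nmd4Δ (66.9 to 122 CPM) reached the lower wild type libraries when batches were pooled. RPI1 had -1.92, -0.09 and -0.67. YGP1 (-0.73 on average) and CWP2 (-0.71) encode cell wall proteins. BAR1, the protease gene that acts on alpha factor, had -1.24, -0.52 and -0.36, with 352 to 403 CPM in wild type and 132 to 168 CPM in upf1Δ. ASG7 (-0.71) and MFA1 (-0.69), also expressed in a cells, had -1.31 and -1.39 in upf1Δ. HXK1, a hexokinase gene, and GPH1, the glycogen phosphorylase gene, had -1.19 and -0.87 in upf1Δ and -0.80 and -0.86 in ebs1Δ. In nmd4Δ they had -0.03 and -0.29 and did not pass, nor did HXK1 in ebs1Δ (edgeR adjusted p = 0.0581). The average of HXK1 no longer passed without wild type replicate 1.

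Outside the pyrimidine, flavin and malate lists the only near equal entry was ADR1 in the NMD substrate list, a gene that the malate list also holds. Of 14 thiamine genes that rose among 17 tested, none was near equal, while 15 of the 17 were graded. THI21 had 2.55, 0.17 and 0.44, THI22 2.32, 0.01 and 0.37, THI6 1.38, 0.28 and 0.67, and PET18 3.00, 0.48 and 0.60. Early meiotic genes had 8 rises among 9 tested, of which 7 were graded, with a median of 2.07 in upf1Δ, 0.13 in nmd4Δ and 0.46 in ebs1Δ; IME2, REC8, ZIP1 and RED1 were 2.92, 3.09, 2.32 and 2.21 in upf1Δ. Among 18 genes of allantoin and other poor nitrogen sources 13 rose and none fell. For these 3 lists the shares over all tested genes were 29.7% higher and 27.2% lower. DAL5 had 2.86, 0.18 and 0.52, DUR3 1.93, 0.10 and 0.15, and GDH2 1.70, 0.03 and 0.35.

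Known NMD substrates gave 11 rises and 4 falls among 22 tested genes, beside 29.7% and 27.2% of all tested genes. STN1, a telomere capping gene, had 2.52, 0.10 and 0.77, EST3, a telomerase subunit gene, 1.45, 0.54 and 0.73, and EST2, the telomerase reverse transcriptase gene, 2.19, -0.02 and 0.54. ADR1 is also on this list, and its near equal fall ran against the direction of those 3. Among 16 NMD and decay factors none rose and 12 fell, 3 of them the deleted genes; SUP35, the release factor gene, had -0.61, -0.26 and -0.18.

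Most ribosomal protein and respiratory chain genes fell slightly on average, beside 27.2% of all tested genes that fell and 29.7% that rose. Of 138 ribosomal protein genes 2 rose and 114 fell, and 95 were graded. On their own 128 were lower in upf1Δ, 13 in nmd4Δ and 28 in ebs1Δ, beside 35.1%, 14.4% and 7.38% of all tested genes. The nmd4Δ count was thus under its share over all tested genes. Medians were -0.33 in upf1Δ, -0.04 in nmd4Δ and -0.09 in ebs1Δ. RPS6A had -0.48, -0.14 and -0.18, RPL19A -0.32, -0.13 and -0.20, RPL19B -0.35, -0.11 and -0.17, and RPL22B 1.40, -0.18 and 0.34. Of 33 respiratory genes 25 fell and none rose, with medians of -0.50, -0.01 and -0.25; QCR7 had -0.68, -0.19 and -0.42. ATP7, ATP15 and ATP20 had -0.62, -0.58 and -0.63 in upf1Δ.

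Zinc-responsive genes gave 8 rises and no fall among 15 tested, beside 29.7% and 27.2% of all tested genes, with 6 graded and none near equal. ZPS1 had 16.99 to 20.7 CPM in wild type, 952, 36.2 and 834 CPM in upf1Δ, 1959 to 2115 CPM in nmd4Δ, and 609, 40.4 and 33.2 CPM in ebs1Δ. Its average rise of 5.07 ± 0.97 was 4.20 without ebs1Δ replicate 1. VEL1 had 2.80, 3.50 and 0.75. At ZPS1 libraries of upf1Δ and of ebs1Δ differed among themselves more than 10-fold, while the 6 nmd4Δ libraries were close to one another.

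The other lists had calls in both directions or few calls, to be read against the 29.7% of all tested genes that rose and the 27.2% that fell. Stress genes gave 4 rises and 7 falls among 23. HSP12, a membrane-associated heat shock gene, had 195 to 265 CPM in wild type, between 34.3 and 47.2 CPM in upf1Δ, 78.8 to 120 CPM in nmd4Δ and 70.9 to 89.2 CPM in ebs1Δ, with changes of -2.51, -1.31 and -1.62. SSA3 (1.77, 0.14 and 0.24), PIR3 (2.35, 0.07 and -0.06) and MRH1 (-1.14, -0.38 and -0.41) were less even. Polyamine and drug exporters gave 6 rises and 3 falls among 15, with TPO2, a polyamine exporter gene, at -2.51, -1.55 and -1.79, FLR1 at 2.86, 0.31 and 0.70, QDR3 at 1.69, 0.04 and 0.66 and QDR1 at 1.33, 0.22 and 0.51.

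HSP12 and TPO2 were below wild type in every deletion library, but their ratios of 0.522 and 0.616 placed them between the classes. Phosphate genes gave 2 rises and 9 falls among 16, and besides GIT1 the named members were VTC4 (-0.76, -0.25 and -0.33), VTC1 (-0.70, -0.04 and -0.36) and PHO8 (-0.39, -0.10 and -0.19). Arginine genes gave 5 rises and 2 falls among 13; CPA1, a carbamoyl phosphate synthetase subunit gene, had 1.60, 0.27 and 0.72. ARG81 and ORT1 were 1.45 and 0.68 in upf1Δ, and ARG8 was 0.90 there and -0.02 in nmd4Δ.

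Purine genes gave 3 rises and 7 falls among 22, leucine genes 2 and 2 among 10, and genes of aspartate and asparagine none and 2 among 9, where 29.7% of all tested genes rose and 27.2% fell. ADE8 (0.29), IMD4 (0.38), ADE16 (-0.19) and ADE12 (-0.23) had the lowest p of the called purine genes, and BAT2 (0.30), LEU9 (0.21), LEU1 (-0.25) and ILV2 (-0.16) among the leucine genes. ILV2 no longer passed without wild type replicate 1. PYC2, a pyruvate carboxylase gene (-0.33), and AAT1, the mitochondrial aspartate aminotransferase gene (-0.17), were the 2 falls of the last list. The strain marker HIS3 was 0.42 in upf1Δ and passed on average (0.16), and LEU2, carried by the plasmid, did not (-0.23, edgeR adjusted p = 0.176).

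Where estimates pointed in different directions, the average described none of the deletions, though few of the opposing estimates passed on their own. NMD4 was -0.89 on average, from 1.68 in upf1Δ, -5.04 in its own deletion and 0.68 in ebs1Δ. MET1, a siroheme synthesis gene, had 30.9 to 34.5 CPM in wild type, 166, 186 and 196 CPM in upf1Δ, 27.4 to 32.8 CPM in nmd4Δ, and 39.7, 36.7 and 43.4 CPM in ebs1Δ. Its average of 0.86 was made of 2.44, -0.12 and 0.25. DIA1 had 2.48, -0.05 and 0.45, and PEX28, a peroxisome gene, had 1.69, -0.02 and 0.49. In these 3 genes nmd4Δ did not pass against wild type.

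Without allowing for matched libraries the tests counted nmd4Δ and wild type libraries as separate. With the matched libraries as a block in limma voom (consensus correlation 0.718) 1620 genes rose and 1410 fell on average. The named near equal genes all passed there, and YBL044W, which did too, was no longer near equal. Of all tested genes, 393 (6.38%) had every deletion library above and 266 (4.32%) every deletion library below wild type within each batch, and 11 of the 12 near equal genes did, which their selection favours.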

How the data were processed

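Poly(A) RNA of 17 yeast libraries was measured. The authors deposited unnormalized counts for each gene. Per the submitters' processing notes, tools were STAR 2.7.11a and, in Subread 2.0.5, featureCounts, with build sacCer3. The annotation, the strand setting and how multiply placed reads were handled: not given in the sources used here. All value columns of the table (6692 genes, 112 of them with 0 reads throughout) were used. RefSeq held 6008 of these genes.

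Groups came from the sample labels. In R 4.3.3, edgeR 4.0.16 kept 6162 genes (filterByExpr by genotype), scaled by TMM and fitted a robust quasi-likelihood model of genotype and batch (5 coefficients, 12 residual degrees of freedom, common dispersion 0.005254). Tests were two-sided and Benjamini-Hochberg adjusted over all tested genes, and the SE is the size of the change over the square root of F. CPM is TMM-scaled without batch correction. The pipeline was tested on simulated independent libraries without a batch effect, which cannot vouch for p-values where libraries are matched. Libraries of 19.75 to 59.48 M reads set the counting precision.

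The members, classes and gene lists were chosen with earlier results of these data known. Named are all near equal genes, the 10 largest graded rises and falls, 5 opposite genes, 3 on each side of the ratio limit, from each list the 4 with smallest p among those called, and the full pyrimidine, flavin and malate lists, with a mean of at least 10 CPM for graded and opposite genes. YNL034W and DPI8 were added after their values were seen. FCR1, URA3 and MET17 were not tested. Alternatives were DESeq2 1.42.0, its size factors, no filter, no batch term, batch 1 alone, no robust fit, limma 3.58.1 voom with matched libraries as a block, their sums, replicate blocks, other cutoffs and each library left out.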

Additional observations from a re-analysis of the deposited data

Results flagged for a closer look

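Single libraries stood apart within a group of 4 to 10 libraries in 4 of 76 groups checked over 38 named genes, by Dixon's 95% limit on the gap to the nearest library over the whole range. Chance flags about 1 in 20 groups. YBL044W had 1.09 CPM in wild type replicate 4 and 0.38 to 0.584 CPM in the other wild type libraries. COS12 had 9.58 CPM in wild type replicate 5 and 4.14 to 5.52 CPM in the others. STR3 had 10.3 CPM in the same library and 8.27 to 8.79 CPM in the others. YNL194C had 1.78 CPM in nmd4Δ replicate 2 and 0.965 to 1.22 CPM in the other nmd4Δ libraries. Without wild type replicate 5 the average change of COS12 was 2.74 in place of 2.55.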

How the results depend on the processing

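Counts of called genes moved by more than 1.5 times under 3 settings. Batch 1 alone gave 803 falls on average and 626 graded falls, all 12 deletion libraries as 1 group gave 52 rises and 71 falls, and the average without upf1Δ gave 870 and 525. Treating the deletions as 1 group puts their differences into the spread. A ratio limit of 0.8 left 0 near equal rises and 5 falls, and a smallest change of 1 left 1 near equal rise. Leaving out each library gave 1689 to 1849 rises, 1307 to 1762 falls, 4488 to 4909 genes at which the deletions differ, 2 to 6 near equal rises, 7 to 11 near equal falls, 1282 to 1363 graded rises and 933 to 1132 graded falls. Near equal rises were 2 without wild type replicate 3, upf1Δ replicate 3 or nmd4Δ replicate 1.

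URA1, URA4, RIB4 and MDH2 stayed near equal in all 27 fits, ADR1, EGO4, PTR2 and YNL018C in 26, MAN2 in 24, YHB1 in 23, and HXT4 and YBL044W in 19. Of 360 average changes of the 12 near equal genes under 30 settings, 359 kept direction and call, and YBL044W did not pass with the deletions as 1 group (0.89, edgeR adjusted p = 0.0561). Of 3299 values for 110 other named genes, 162 no longer passed; of these and YBL044W, 87 were with the deletions as 1 group and 28 without upf1Δ. Changes of sign were 0.00318 for MDH1 with the deletions as 1 group, and, leaving out 1 deletion, 0.16 for NAM7 and -0.063 for SIP4 (upf1Δ), 1.18 for NMD4 (nmd4Δ) and 0.34 for EBS1 (ebs1Δ). The cause was not tested.

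Of 20 same-numbered pairs of different genotypes, 8 had a correlation of deviations over 0.1, and the range was -0.41 to 0.51. Those of upf1Δ with nmd4Δ were 0.158, 0.1 and 0.19, and with ebs1Δ 0.434, 0.51 and -0.0703. Those of ebs1Δ with wild type were 0.449, 0.325 and -0.41. Wild type replicates 3 and 4 are batch 2 libraries that match replicates 1 and 2, so their numbers need not mark a shared culture. Whether batch 1 libraries of the same number were cultured together is not known, and the main tests did not pair them. A block by replicate number puts wild type replicate 3 with replicate 3 of each deletion, so it does not model such pairing. With the replicate number as a block there were 1783 rises, 1538 falls, 4714 genes at which the deletions differ, 4 near equal rises and 9 falls, and 1283 graded rises and 1050 falls. Another scaling moved the median average change from -0.0126 to -0.0107. Genes at under 5 CPM, such as YBL044W, are limited by depth.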
